A study of Mus musculus with 15 samples.

Results

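The genes of oxidative phosphorylation, nuclear and mitochondrial, were followed across 15 poly(A) RNA-seq libraries of mouse CD4 T cells. Members were the protein-coding genes of GENCODE release M21 whose symbols name a subunit of complex I (Ndufa, Ndufb, Ndufc, Ndufs or Ndufv with a digit), complex II (Sdha to Sdhd), complex III (Uqcr), complex IV (Cox4 to Cox8) or complex V (Atp5), together with the 13 protein genes of the mitochondrial genome. A mean of at least 1 TPM over the 15 libraries was required, where TPM is the share of transcripts, corrected for transcript length, in a library scaled to a fixed total. Of 98 candidates, 91 were members, among 55421 gene IDs in the table. The 78 nuclear members comprised 36 of complex I, 4 of complex II, 8 of complex III, 13 of complex IV and 17 of complex V, and the 13 mitochondrial ones 7, 0, 1, 3 and 2. All 91 entered the tests.

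The 7 candidates below the minimum were Ndufa4l2, Cox4i2, Cox6a2, Cox7b2, Cox8b, Cox8c and a second Atp5o ID. Nearest to the minimum from below was Cox4i2, with a mean of 0.749 TPM. Nearest above it were Atp5s at 3.65 TPM, Cox7a1 at 6.86 TPM and Cox6b2 at 7.76 TPM. The ATPase inhibitory factor was not matched under the symbol Atp5if1.

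Naive CD4 T cells (CD4+, CD25-, high CD62L, low CD44) from spleen and lymph node were stimulated on wells coated with CD3 and CD28 antibodies for 5 days with antibodies against IFNγ and IL-4, 3 libraries in each of 5 groups. TH17 cultures, a helper lineage known for IL-17, received TGFβ at 2.5 ng/ml, IL-1β, IL-6 and IL-23 and either DMSO or Srci1, a compound known here by that name only, added 24 h after plating at a concentration not given in the sources used here. The knockout TH17 cultures came from STAT3 fl/fl CD4-cre mice, in which the floxed alleles are recombined in cells that express or have expressed Cd4, and received DMSO. Treg cultures received IL-2 and TGFβ, at 0.5 ng/ml or another dose the protocol leaves to each experiment, with DMSO or Srci1, so Treg against TH17 compares cytokines and TGFβ dose as well. All groups but the knockout were wild type. The protocols give no age, strain background or sex, and no label says whether libraries of a group came from separate mice, so p-values measure the spread between libraries, which may be technical. The study asked how T cell receptor signalling and STAT3 phosphorylation bear on TH17 differentiation.

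Oxidative phosphorylation passes electrons from NADH through complex I, or from succinate through complex II, to ubiquinone, then through complex III, cytochrome c and complex IV to oxygen. The proton gradient built on the way drives ATP synthesis by complex V. The mitochondrial genome supplies core membrane subunits of complexes I, III, IV and V from polycistronic transcripts, and complex II is wholly nuclear. Activated T cells are known for a high demand on both glycolysis and respiration.

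Labels were checked first. Stat3, the targeted gene, was at 130, 133 and 99.8 TPM in DMSO TH17 libraries and at 33.5, 38.4 and 30.7 TPM in knockout libraries. It was at 120.8 ± 18.3 TPM (SD, n = 3) in DMSO TH17, 157 ± 4.49 in Srci1 TH17, 134 ± 5.21 in DMSO Treg and 76.5 ± 1.58 in Srci1 Treg. Summed TPM of 7 CD4 T cell markers was 1836 to 2818 over all libraries. Il17a, the defining TH17 cytokine, was at 1338 ± 51.5 TPM in DMSO TH17, 40.4 ± 3.31 with Srci1 and 10.2 ± 1.45 in the knockout. Foxp3, the defining Treg factor, was at 129.7 ± 2.23 TPM in DMSO Treg and 268 ± 11.0 in Srci1 Treg. It was also at 204 ± 8.37 in Srci1 TH17 and 205 ± 17.6 in knockout TH17, against 11.7 ± 2.15 in DMSO TH17, so the TH17 label of those 2 groups names the culture conditions. Depth per library is unknown from TPM.

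Sequences come first, because they limit what the mitochondrial values can say. Each of 5 mitochondrial genes had an unprocessed pseudogene on chromosome 1, in a run of nuclear mitochondrial DNA, that matched it over nearly all of its transcript. These pairs were mt-Co2 and Gm28661, mt-Atp6 and Gm10925, mt-Co3 and Gm28437, mt-Nd3 and Gm28438, and mt-Nd4l and Gm10222. Across 345 aligned bases mt-Nd3 and its copy differed at 1 position, and the other pairs at none. The first 60 bases of mt-Nd3 (GRCm38 chrM:9459-9806, plus strand, coding) and of Gm28438 (chr1:24612775-24613119, minus strand) are shown with the differing base in capitals, beside bases 311 to 370 of mt-Co2 (chrM:7013-7696, plus strand, coding), which its copy Gm28661 (chr1:24614885-24615565, minus strand) repeats letter for letter.
mt-Nd3: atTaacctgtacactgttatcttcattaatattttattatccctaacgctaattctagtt
Gm28438: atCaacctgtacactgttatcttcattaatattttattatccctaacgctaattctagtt
mt-Co2 and Gm28661: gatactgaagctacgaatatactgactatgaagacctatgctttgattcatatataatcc

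The deposited values split each pair unevenly. Over the 15 libraries the chromosome 1 copy took 88.2% to 96.7% of the pair's TPM for mt-Co2, 87.4% to 96.8% for mt-Atp6, 92.1% to 100% for mt-Co3, 84.5% to 95.2% for mt-Nd3 and 81.9% to 100% for mt-Nd4l. The remainder left to the mitochondrial gene was erratic. mt-Co3, a core subunit of complex IV, was listed at 0.02 TPM in DMSO Treg replicate 1 and at 139 and 144 TPM in the other two. mt-Nd4l was listed at 0 in Srci1 TH17 replicate 1 and at 382 and 235 TPM in the others. Within a group, the coefficient of variation of the 5 genes ran from 6.4% to 93.8%, and that of the sums of gene and copy from 2.6% to 40.6%. Results for these 5 genes are therefore given on the sums, an alternative chosen after the data were seen, beside the values as deposited. Which of the sequences in a pair the RNA came from was not tested. mt-Nd4 had a shorter copy, Gm28439, over 63.6% of its transcript, with a mean of 189 TPM against 1536 TPM for mt-Nd4, and was not summed.

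mt-Atp8 and mt-Atp6, the complex V subunits of the mitochondrial genome, overlap by 43 bases (chrM:7927-7969) and are read from 1 transcript. The overlap is printed in capitals with 20 bases on either side, since reads there belong to both genes.
mt-Atp8 and mt-Atp6: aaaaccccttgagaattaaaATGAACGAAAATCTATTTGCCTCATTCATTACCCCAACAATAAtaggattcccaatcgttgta
At 19554 TPM on average, mt-Atp8 had the highest TPM of the 91 members, a level per length, with an annotated transcript of 204 bases. For mt-Atp6 summed with its copy, group means ran from 3652 TPM in DMSO Treg to 5798 TPM in knockout TH17. The cause of this gap was not tested. mt-Atp8 made up more than any other gene of the mitochondrial sum. Sums without it are given below.

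**Figure D1:**
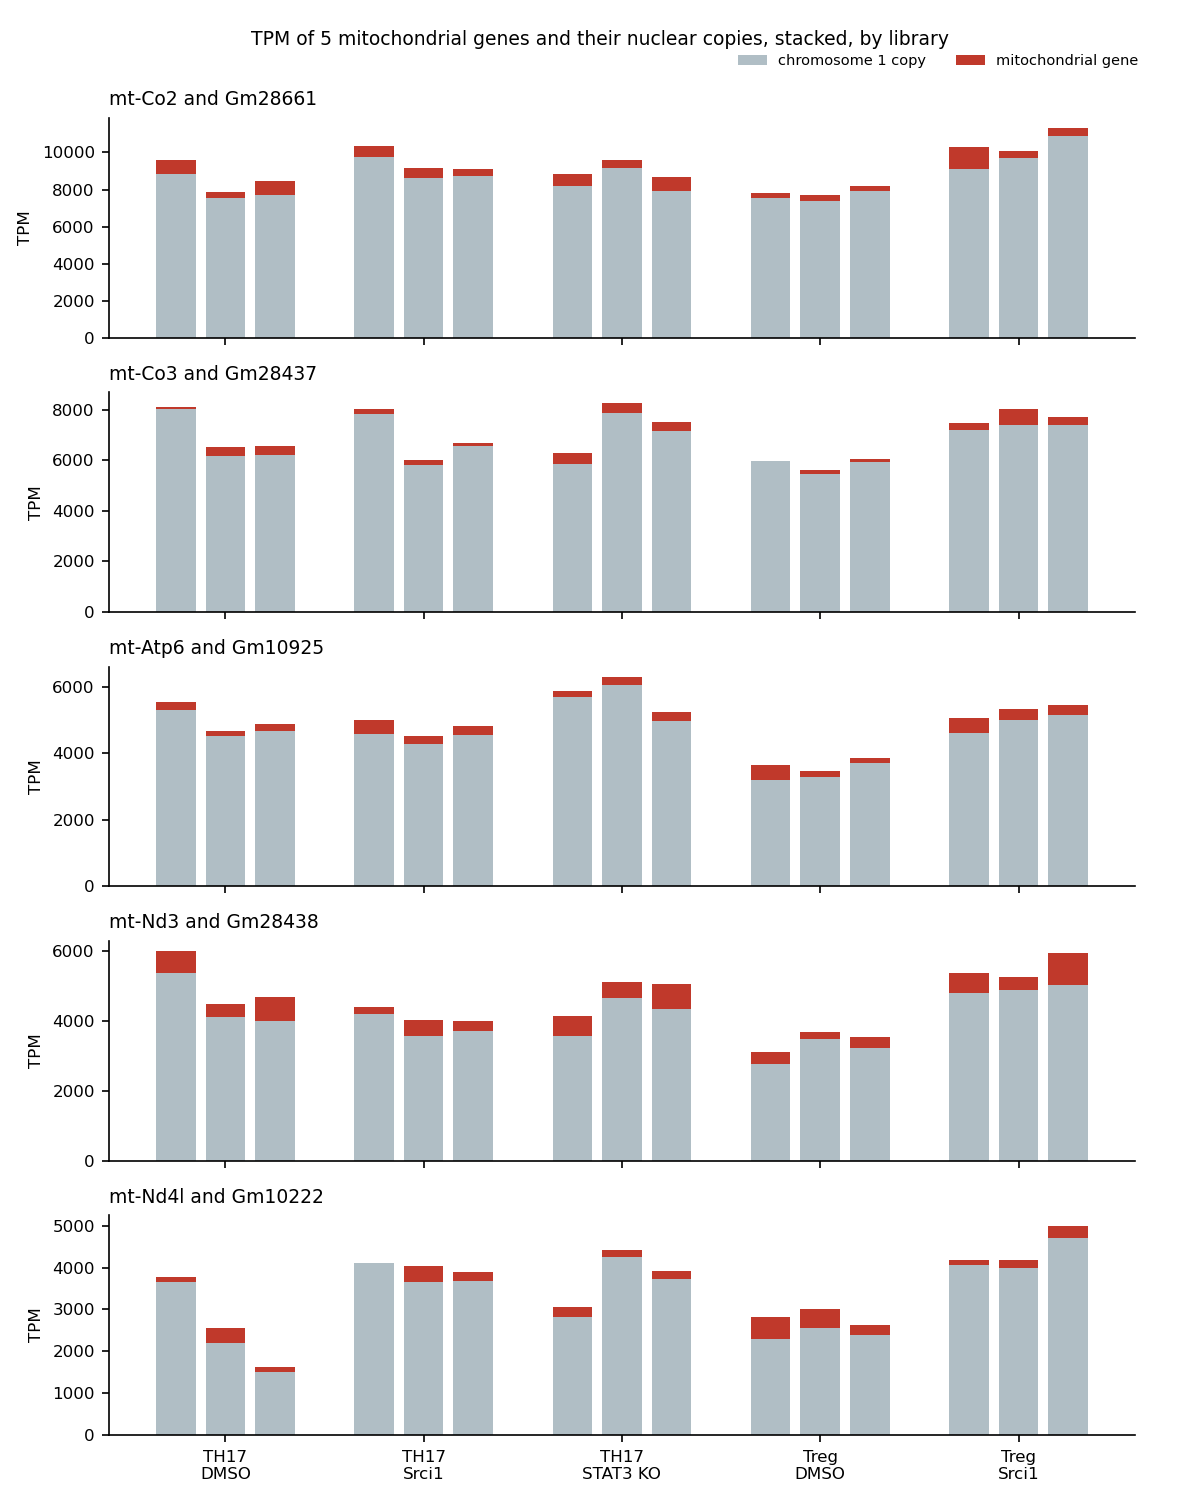
Stacked bars give TPM (y axis, from 0) of 5 mitochondrial genes (red) and their chromosome 1 copies (grey) in each of 15 libraries, 3 a group along the x axis, with 1 panel a pair. The grey part is 81.9% to 100% of every bar. In most groups the red part has a larger coefficient of variation between libraries than the whole bar, each taken relative to its own mean.

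The shares of TPM taken by nuclear and by mitochondrial members were set side by side. Nuclear members took 2.33% ± 0.139 of all TPM in DMSO TH17, 2.44% ± 0.082 in Srci1 TH17, 2.52% ± 0.139 in knockout TH17, 2.47% ± 0.017 in DMSO Treg and 2.58% ± 0.073 in Srci1 Treg (SD, n = 3). The 13 mitochondrial genes took 3.65% ± 0.531, 4.38% ± 0.247, 4.19% ± 0.468, 3.44% ± 0.128 and 4.86% ± 0.476 in the same order. With the 5 copies added the mitochondrial share was 6.30%, 7.17%, 7.07%, 5.67% and 7.99%, and with the copies but without mt-Atp8 it was 4.58%, 5.02%, 5.10%, 4.06% and 5.66%. Each of these 3 mitochondrial sums was lowest in DMSO Treg and highest in Srci1 Treg. Libraries of these 2 groups did not overlap, at 3.29% to 3.51% against 4.41% to 5.36% for the 13 genes. Among TH17 groups the sums overlapped, since DMSO replicate 1 was at 4.25% and knockout replicate 1 at 3.66%. No test was made on the sums. In bulk RNA, fewer cells of a type and less RNA per cell cannot be told apart.

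Ribosomal protein genes, a far larger class, were lower with Srci1. They took 30.3% ± 2.16 of TPM in DMSO TH17, 23.7% ± 0.628 in Srci1 TH17, 30.9% ± 1.37 in knockout TH17, 26.8% ± 0.218 in DMSO Treg and 22.3% ± 0.529 in Srci1 Treg. TPM sums to a fixed total, so a smaller share for this class leaves a larger one for other genes. The median of all 12800 genes tested was above 0 on the log2(TPM + 1) scale. It was 0.214 for Srci1 in TH17 cells, 0.129 for the knockout, 0.114 for Srci1 in Treg cells and 0.18 for Treg against TH17. The ribosomal protein share was not lower in the knockout. Rescaling without ribosomal protein and mitochondrial genes put these medians at 0.1174, 0.1589, 0.0614 and 0.1209. The cause of these medians was not tested. Outside ribosomal protein genes, the nuclear members took 3.34%, 3.20%, 3.64%, 3.37% and 3.32% of TPM in the 5 groups, and the 13 mitochondrial genes 5.22%, 5.74%, 6.07%, 4.70% and 6.26%. On that base the SD of the nuclear share was 0.305 with DMSO and 0.134 with Srci1 in TH17 cells, and 0.031 and 0.110 in Treg cells. In both cell types the shift with Srci1 was under the larger SD of the pair and over the smaller. The mitochondrial share was still higher with Srci1 in Treg cells. In TH17 cells the difference was within the SD of the DMSO libraries (0.613) but over that of the Srci1 libraries (0.276). Counts over all 78 nuclear or 13 mitochondrial members are therefore given below also after median-of-ratios scaling, which sets that median close to 0, and counts over the other gene lists with the number of calls kept under all 3 other scalings.

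**Figure D2:**
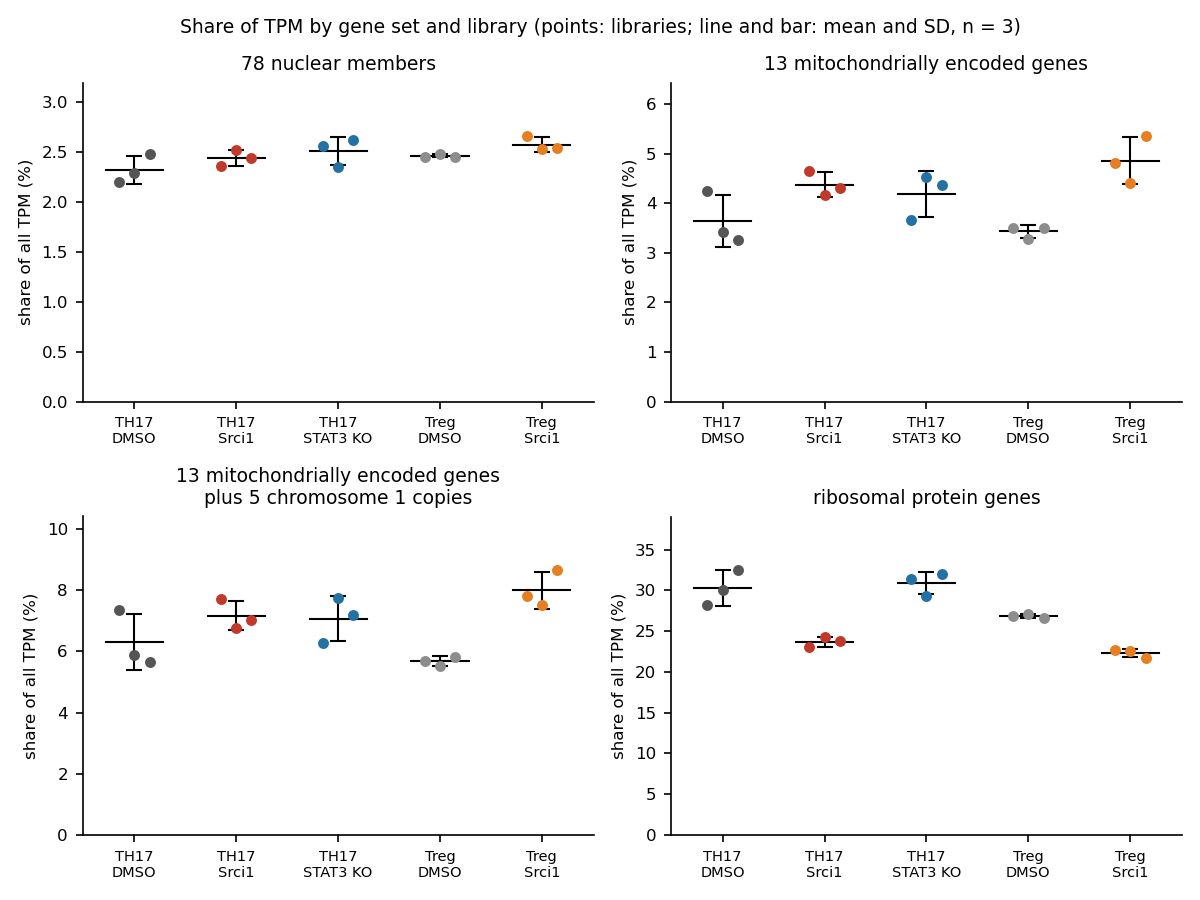
Points give the share of all TPM (y axis, percent, from 0) in each library for the 78 nuclear members, the 13 mitochondrial genes, those 13 with 5 copies, and ribosomal protein genes, with the mean and SD of 3 libraries a group along the x axis. Nuclear members stay between 2.21% and 2.66%, while the mitochondrial genes run from 3.26% to 5.36%.

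For 63 of 78 nuclear members (80.8%) the highest group mean was less than 1.5 times the lowest, and the median ratio was 1.29. The same held for 26.3% of all 12800 genes tested, with a median ratio of 1.86, and for 46.3% of the 2799 genes at a mean of 50 TPM or more, a level that 72 of the 78 reached and that was chosen after the data were seen. Across the 13 mitochondrial genes the median ratio was 1.83 as deposited and 1.60 with copies summed, and 11 of 13 had their highest mean in Srci1 Treg on either scale. Of the nuclear members, 36 had their lowest mean in DMSO TH17, 28 their highest in knockout TH17 and 25 their highest in Srci1 Treg. Levels rose from the entry complexes to the end of the chain, with a median of 155 TPM for nuclear complex I subunits, 157 for complex II, 292 for complex III, 399 for complex IV and 434 for complex V. Atp5b, the catalytic beta subunit of ATP synthase, was the most abundant nuclear member, at 2064 TPM on average.

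Genes were called with limma on log2(TPM + 1) at an adjusted p under 0.05 over the 12800 genes tested. A difference below is in log2(TPM + 1), which understates the change of genes at low TPM. The Srci1 TH17, knockout and Treg comparisons with DMSO TH17 share those 3 libraries, so their values stand side by side and are not independent.

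Srci1 in Treg cells was followed by a rise of nearly the whole mitochondrial set once copies were summed. As deposited, 7 of 13 mitochondrial genes were called higher and 0 lower, beside 17.1% and 10.0% of all genes tested. After median-of-ratios scaling the counts were 5 and 0 (all genes: 10.6% and 13.8%). On the sums with copies 12 of 13 were called higher, the exception being mt-Co1, and 9 after median-of-ratios scaling of the sums. Leaving out 1 library at a time gave 7 to 10 of 13 on the sums, with 7 without DMSO Treg replicate 2 or without Srci1 Treg replicate 3. The median difference of the 13 genes as deposited was 0.656, against 0.114 for all genes.

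mt-Nd2, a membrane subunit of complex I (chrM:3914-4951, plus strand), had the largest difference on the sums, at 1214, 1228 and 1296 TPM in DMSO Treg and 2192, 2411 and 2443 TPM in Srci1 Treg. Its difference was 0.91 ± 0.09 (SE, adjusted p = 8.89e-06), with groups far apart. mt-Nd1 (chrM:2751-3707, plus strand), the neighbouring complex I subunit, was at 2560.1, 2429 and 2652 TPM against 3877, 4222 and 4327 TPM, a difference of 0.70 ± 0.075 (adjusted p = 1.49e-05). Both genes lack a near-identical copy, and both calls held under all 3 other scalings and with any 1 library left out.

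mt-Cytb, the cytochrome b of complex III (chrM:14145-15288, plus strand), rose by 0.53 ± 0.08 (adjusted p = 3.82e-04), from 2463 ± 107 to 3558 ± 215 TPM. mt-Nd4, another complex I subunit, rose by 0.70 ± 0.10 (adjusted p = 1.63e-04), from 1141 ± 22.2 to 1862 ± 122 TPM. Both kept the call under each scaling and without any 1 library. Among the remaining complex I genes mt-Nd5 rose by 0.61 and mt-Nd6, the only subunit encoded on the opposite strand, by 0.58. mt-Nd5 lost its call without DMSO Treg replicate 2 or 3 or Srci1 Treg replicate 3, at adjusted p up to 0.0902. mt-Nd6 lost it without DMSO Treg replicate 2 or Srci1 Treg replicate 3, at up to 0.0801, and mt-Atp8 (0.52) without any of 4 libraries, at up to 0.0959.

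Genes with copies also rose on their sums. The mt-Nd3 pair was at 3111, 3686 and 3539.8 TPM in DMSO Treg and at 5349.9, 5241 and 5936 TPM in Srci1 Treg, a difference of 0.68 ± 0.11 (adjusted p = 4.96e-04). On the same scale the mt-Atp6 pair rose by 0.53, the mt-Nd4l pair by 0.66, the mt-Co2 pair by 0.42 and the mt-Co3 pair by 0.39. The mt-Nd4l pair lost its call without any of the 6 libraries compared, and the mt-Co3 pair without DMSO Treg replicate 2 or Srci1 Treg replicate 2 or 3. None of the 5 was called as deposited, with differences of 0.99 for mt-Nd3, 0.66 for mt-Atp6, -0.95 for mt-Nd4l, 0.94 for mt-Co2 and 3.82 for mt-Co3, the last from 94.6 ± 81.9 to 413 ± 188 TPM. mt-Co1, the catalytic subunit of complex IV, was at 8519, 8056 and 8214 TPM with DMSO and 9071, 9255 and 9324 TPM with Srci1. Its libraries did not overlap, and the difference of 0.16 was not called.

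The ribosomal RNAs of the same genome moved in different directions. mt-Rnr1, the small mitochondrial ribosomal RNA, fell by 0.415 with Srci1 in Treg cells (589.9 ± 24.4 to 442 ± 25.0 TPM, adjusted p = 0.00601), while mt-Rnr2, the large one, rose by 0.39 (420.0 ± 14.0 to 553 ± 75.7 TPM, adjusted p = 0.0279), a call that held under 1 of 3 other scalings. Markers of other cells were low in both groups. B cell markers summed to 2.00 to 3.72 TPM with DMSO and 1.00 to 2.45 with Srci1, and myeloid markers to 3.82 to 5.06 and 1.82 to 2.85. CD8 T and NK cell markers summed to 19.7 to 21.4 and 7.34 to 8.19 TPM, with Ncr1 at 0 in all libraries. Of the 3 tested, 1 was called higher with Srci1 and 1 lower. Red cell markers summed higher, from 1.29 to 3.40 TPM up to 24.2 to 28.5 TPM, with 1 of 2 tested members called higher and Alas2 under 1 TPM throughout. Their part in the mitochondrial result was not tested.

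In TH17 cells Srci1 gave fewer mitochondrial calls. As deposited 3 of 13 were called higher and 0 lower, beside 33.8% and 7.08% of all genes, and 4 higher on the sums. With median-of-ratios scaling these became 1 higher and 1 lower as deposited, and 1 higher and 3 lower on the sums. Of all genes, 16.5% were then called higher and 16.5% lower, or 16.5% and 16.6% with copies summed. mt-Nd2 was the one that rose under every scaling and without any 1 library, from 1497, 1179 and 1137 TPM with DMSO to 2077, 1854 and 1888 TPM with Srci1 (0.62 ± 0.09, adjusted p = 1.73e-04). mt-Cytb rose by 0.37 (adjusted p = 0.00323), a call lost after median-of-ratios scaling. mt-Nd1 was called at 0.22 (adjusted p = 0.0303), and this turned to -0.05 after median-of-ratios scaling. It was lost without DMSO TH17 replicate 2 or 3 or Srci1 TH17 replicate 1 or 2, at adjusted p up to 0.125. On the sums the mt-Nd4l pair was called higher by 0.68, resting on DMSO libraries at 3783, 2553 and 1631 TPM. After median-of-ratios scaling the mt-Nd3 (-0.55), mt-Atp6 (-0.34) and mt-Co3 (-0.31) pairs were called lower. Counts on the sums ran from 2 to 8 higher as 1 library was left out, with 8 without DMSO TH17 replicate 1, 2 without DMSO TH17 replicate 3 and 2 without Srci1 TH17 replicate 1 or 2.

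Loss of STAT3 raised 5 of 13 mitochondrial genes as deposited and lowered 0, where 30.9% of all genes were called higher and 18.9% lower, and all 5 were kept under each of 3 other scalings. mt-Nd6 rose by 0.63 ± 0.16 (adjusted p = 0.00509), from 823, 627 and 756 TPM in wild-type libraries to 1296, 1190.2 and 939 TPM in knockout ones. mt-Cytb rose by 0.43 ± 0.08 (adjusted p = 6.57e-04), mt-Nd2 by 0.38 and mt-Nd4 by 0.38. mt-Nd5 rose by 0.60, a call lost without DMSO TH17 replicate 3 (adjusted p = 0.0505) or knockout replicate 2 (0.0526). With copies summed, 7 were called higher, adding the mt-Nd4l and mt-Atp6 pairs. Without DMSO TH17 replicate 3 or knockout replicate 2 that count was 4. After median-of-ratios scaling of the sums, 5 were called higher (all genes: 25.2% higher and 25.7% lower). mt-Nd1 was at 2990 ± 230 TPM in the knockout and 2963 ± 291 TPM in the wild type, a difference of 0.015 ± 0.075. mt-Nd1 and mt-Nd2 lie side by side on the same strand. mt-Rnr1 fell by 0.86 (adjusted p = 4.6e-06) and mt-Rnr2 by 0.425 (adjusted p = 0.00865) in the same libraries.

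The direct test of Srci1 in TH17 minus Srci1 in Treg cells called 3 of 13 mitochondrial genes lower and 0 higher, where 2.95% of all genes were called lower and 11.3% higher. mt-Nd1 was called at -0.48 ± 0.11 (adjusted p = 0.00838), the only one of the 3 kept without any 1 library. mt-Nd4 at -0.49 and mt-Nd3 at -1.85 lost their calls without any of 8 and of 7 libraries. After median-of-ratios scaling 5 were called lower. Of all genes, 5.48% were then called lower and 8.9% higher, or 5.51% and 8.89% with copies summed. On the sums 4 were lower, mt-Nd3 (-0.95), mt-Atp6 (-0.60), mt-Nd4 (-0.49) and mt-Nd1 (-0.48), and 8 after median-of-ratios scaling of the sums. Of these 4, all but mt-Nd4 were kept without any 1 library. The rise with Srci1 was smaller in TH17 than in Treg cultures for mt-Nd1. For mt-Nd2 (-0.29) and mt-Cytb (-0.16) no difference was called as deposited, and with sums and median-of-ratios scaling together both were called lower.

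Between the DMSO cultures of both cell types, the number of mitochondrial calls depended on the scaling and on the sums. Treg against TH17 in DMSO called 1 of 13 lower, mt-Nd1 at -0.215 (adjusted p = 0.0316), and 0 higher, beside 32.3% of all genes higher and 12.5% lower. The count was 7 lower after median-of-ratios scaling (all genes: 20.9% higher and 21.9% lower), 3 lower on the sums and 9 lower with both. The mt-Nd3 pair (-0.54), the mt-Atp6 pair (-0.46) and mt-Nd1 made up the 3. As deposited mt-Nd1 was no longer called without DMSO TH17 replicate 1 (adjusted p = 0.131) or without DMSO Treg replicate 1 or 2 (up to 0.110).

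**Figure D3:**
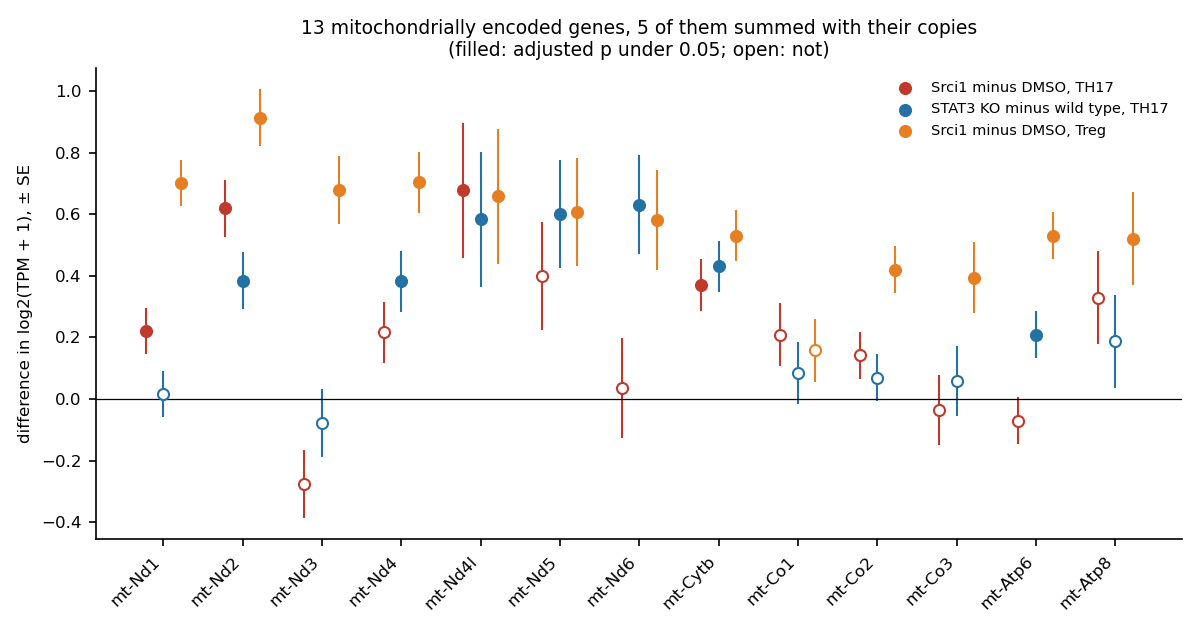
Points give the difference in log2(TPM + 1) ± SE (y axis) for each mitochondrial gene (x axis), with 5 genes summed with their copies, for Srci1 in TH17 (red), STAT3 loss (blue) and Srci1 in Treg (orange). Filled points are called and open ones are not; all 13 orange points lie above 0 and 12 are filled.

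As deposited, loss of STAT3 in TH17 cultures gave the most calls among nuclear members, as it did among all genes tested. After median-of-ratios scaling the most nuclear calls came from Srci1 against the knockout. Loss of STAT3 raised 29 of 78 and lowered 8, beside the 30.9% and 18.9% of all genes given above, and median-of-ratios scaling changed this to 12 higher and 10 lower (all genes: 25.2% and 25.7%). The median nuclear difference of 0.135 was close to that of all genes (0.129). Of these calls, 12 higher and 7 lower held under each of 3 other scalings and without any 1 library. By complex, 13 of 36 nuclear members of complex I were higher and 3 lower, then 2 and 0 of 4 for complex II, 2 and 2 of 8 for complex III, 5 and 2 of 13 for complex IV, and 7 and 1 of 17 for complex V.

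Ndufa4, filed by symbol with complex I although known as a subunit of complex IV, rose most. It was at 189, 228 and 249 TPM in wild type and at 411, 417 and 468 TPM in the knockout (0.96 ± 0.09, adjusted p = 7.96e-07). Knockout libraries were all above wild-type ones. The nuclear core of complex I, the 7 subunits that carry its flavin and iron-sulfur clusters, had 5 higher and 0 lower, 2 of them kept under all 3 other scalings. Among these Ndufv1, which binds NADH, rose by 0.36. Supernumerary subunits that rose under each scaling included Ndufb2 (0.56), Ndufa5 (0.52) and Ndufa9 (0.37).

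Subunits of the other complexes rose in part. Sdha, the flavoprotein of complex II (chr13:74322254-74350280, minus strand), was at 123, 132 and 94.2 TPM in wild type and 161, 231 and 194 TPM in the knockout (0.74 ± 0.14, adjusted p = 4.48e-04). Sdhd, a membrane anchor of the same complex (chr9:50596357-50603812, minus strand), was at 121, 126 and 124 TPM against 181, 176 and 165 TPM (0.49 ± 0.06, adjusted p = 1.15e-05). Both were above wild type in all 3 libraries. Summed over its 4 genes, complex II was at 474 ± 20.4 TPM in DMSO TH17, 583 ± 29.6 in Srci1 TH17, 607 ± 31.7 in the knockout, 564 ± 39.1 in DMSO Treg and 638 ± 19.1 in Srci1 Treg. Sdhb (-0.05), the iron-sulfur subunit, and Sdhc (0.15), the other anchor, were not called, at 144 and 93.3 TPM in the knockout. Atp5g2, 1 of 3 genes for the same c subunit of the ATP synthase ring, rose by 0.62 (adjusted p = 6.77e-06), from 451, 526 and 555 to 778, 733 and 833 TPM, and Atp5g1 (352 TPM) and Atp5g3 (577 TPM) in the knockout were not called. Uqcr10, a small subunit of complex III, rose by 0.53.

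Genes that fell were fewer. Cox7a1, the isoform of a complex IV subunit known from heart and skeletal muscle (chr7:30184144-30186078, plus strand), was at 9.3, 18.9 and 21.2 TPM in wild type and 4.29, 1.78 and 3.16 TPM in the knockout, a difference of -2.07 ± 0.41 (adjusted p = 8.3e-04). Its ubiquitous counterpart Cox7a2 rose by 0.36, from 218 ± 7.14 to 280 ± 15.4 TPM, a call lost under 1 of 3 scalings. Ndufb11 (chrX:20615326-20617619, minus strand), a complex I subunit, fell by 0.67 ± 0.09 (adjusted p = 1.86e-05), from 220.5, 222 and 226 TPM to 159, 120.5 and 142 TPM. Ndufv3 fell by 0.71, Atp5d, the delta subunit of ATP synthase, by 0.47, Cox5a by 0.29, the Rieske protein Uqcrfs1 by 0.235 and Uqcrh, the hinge protein of complex III, by 0.22.

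Markers of other cells were higher in the same knockout libraries. B cell markers summed to 13.3 to 13.9 TPM against 2.77 to 3.78 in wild type, with 3 of 4 tested higher and 1 lower, and Ms4a1 and Pax5 under 1 TPM in every library. Myeloid markers summed to 12.9 to 14.9 against 3.70 to 6.14, with 2 of 2 tested higher, and Lyz2, Csf1r and Itgax under 1 TPM. CD8 T and NK markers summed to 17.6 to 21.1 against 7.13 to 8.84, with 2 of 3 tested higher. Their part in the calls was not tested.

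Srci1 in TH17 cells gave fewer nuclear calls than the knockout. It raised 14 of 78 and lowered 5, where 33.8% of all genes were called higher and 7.08% lower. After median-of-ratios scaling 1 was higher and 15 lower (all genes: 16.5% higher and 16.5% lower). The median of 0.070 lay under the 0.214 of all genes. Sdha alone among those called higher kept the call under all 3 other scalings, at 189, 197 and 164 TPM with Srci1 (0.66 ± 0.14, adjusted p = 0.00184). Without 1 library the higher count ran from 8 to 13, with 8 when DMSO TH17 replicate 2 was dropped, 8 for Srci1 TH17 replicate 3 and 9 for Srci1 TH17 replicate 2. Srci1 libraries of Sdha were all above the 3 DMSO ones. Beside these calls, CD8 T and NK markers summed to 9.39 to 13.9 TPM with Srci1 and red cell markers to 6.45 to 7.33 TPM, against 7.13 to 8.84 and 0 to 1.02 TPM with DMSO, and their part was not tested.

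Other genes rose on the deposited scale. Ndufa4 rose by 0.40 (adjusted p = 0.00349), Sdhd by 0.34, Atp5k, a small subunit tied to ATP synthase dimers, by 0.44 and Ndufv1 by 0.32, and all 4 held without any 1 library. After median-of-ratios scaling none of these 4 was called, with differences of 0.125, 0.07, 0.17 and 0.045. Ndufa10, a complex I subunit, was called at 0.37 and lost this without 3 of the 6 libraries in turn, at adjusted p up to 0.0904. Atp5b, at 2486, 2303 and 2206 TPM with Srci1 against 2223, 1656 and 1377 TPM, was called at 0.44, overlapped between groups and lost the call without DMSO TH17 replicate 2 or 3 or Srci1 TH17 replicate 1. Cox5a, Atp5a1, Atp5f1, Atp5j, Atp5o and Ndufb9 were called higher at 0.15 to 0.20 and turned to between -0.07 and -0.12 after median-of-ratios scaling. All of these but Atp5a1 also lost the call without some of the libraries compared, at adjusted p up to 0.170.

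The 5 genes that fell with Srci1 in TH17 kept their calls under every scaling. All 3 other scalings lowered the median of all genes, which favours lower calls. It was -0.0088 with median-of-ratios scaling, 0 with quantile normalization and 0.1174 on rescaling without ribosomal protein and mitochondrial genes. Uqcrh (chr4:116066965-116075071, minus strand) was at 775, 780.4 and 787 TPM with DMSO and 591, 605 and 571 TPM with Srci1 (-0.41 ± 0.05, adjusted p = 3.37e-05). Ndufb11 fell by 0.48 (adjusted p = 6.51e-04), to 152, 175 and 151 TPM, and Ndufa6 by 0.55 (adjusted p = 0.00933), from 183, 250.3 and 297 to 154, 156 and 178 TPM. Atp5mpl, a small membrane protein of ATP synthase (chr12:111961375-111966977, minus strand), was at 842, 752 and 899.8 TPM against 649, 604 and 670.3 TPM (-0.37 ± 0.07, adjusted p = 8.78e-04). Groups did not overlap for these genes. Uqcrb, which binds ubiquinone in complex III, was called at -0.23 with an adjusted p of 0.05 after rounding, and lost the call without DMSO TH17 replicate 1 or 3 or Srci1 TH17 replicate 2.

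Srci1 in Treg cells raised 7 nuclear members and lowered 4, where 17.1% of all genes were called higher and 10.0% lower. After median-of-ratios scaling the member counts were 1 and 4 (all genes: 10.6% and 13.8%). With array weights they were 18 and 9, and calls over all genes rose as well, to 27% and 13.2%. With only the 2 groups compared in the model they were 12 and 7 (all genes: 23.6% and 11.6%). Ndufa4 rose by 0.41 (adjusted p = 0.00434), from 341, 309.9 and 319.7 to 466, 403 and 425 TPM. Sdhd rose by 0.29 (adjusted p = 0.00288), to 186, 214 and 186 TPM, and Atp5f1 by 0.23. These 3 held without any 1 library, and all 3 lost the call after median-of-ratios scaling. Ndufs1, the largest nuclear core subunit of complex I, rose by 0.42, called under every scaling, but lost the call without DMSO Treg replicate 2 or Srci1 Treg replicate 1 or 3, at adjusted p up to 0.106. Without 1 library the higher count ran from 3 to 7, with 3 without Srci1 Treg replicate 1 and 4 without DMSO Treg replicate 2 or Srci1 Treg replicate 2.

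Uqcrh fell here too, to 514, 548 and 539 TPM from 649.9, 723 and 655 TPM (-0.34 ± 0.05, adjusted p = 2.31e-04), the only lower call of 4 kept under every scaling and without any 1 library. Ndufv3 (-0.47) and Atp5d (-0.34) fell under every scaling but lost the call without 5 and 3 libraries in turn. All 3 other scalings lowered the median of all genes, which favours lower calls. It was 0.004 with median-of-ratios scaling, 0.0374 with quantile normalization and 0.0614 on rescaling without ribosomal protein and mitochondrial genes. Cox7a1, at 6.28, 6.42 and 2.71 TPM with DMSO and 0.93, 1.09 and 2.69 TPM with Srci1, was called at -1.25 (adjusted p = 0.0378) with 2.71 and 2.69 all but touching, and lost the call without any of 4 libraries. The lower count ran from 1 to 4, with 1 without DMSO Treg replicate 1 and 2 without Srci1 Treg replicate 2 or 3.

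The test of the difference between cell types called 2 nuclear members lower and 0 higher, where 2.95% of all genes were called lower and 11.3% higher. The member counts were the same after median-of-ratios scaling (all genes: 5.48% lower and 8.9% higher). Atp5mpl was at 704, 749 and 735 TPM in DMSO Treg and 785, 740.2 and 724 TPM in Srci1 Treg, and the difference between the Srci1 effects was called (-0.41 ± 0.10, adjusted p = 0.0125). Uqcrb was at 284, 253 and 285 TPM in DMSO Treg and 315, 296 and 307 TPM in Srci1 Treg (-0.39 ± 0.12, adjusted p = 0.0489), a call lost on leaving out any of 9 libraries in turn. No difference was called for Ndufa4 (-0.01), Sdhd (0.05) or Uqcrh (-0.07). For Sdha, which was called in TH17 but not in Treg cells, the difference was 0.48 (adjusted p = 0.117).

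Between the cell types in DMSO, 21 nuclear members were higher in Treg than in TH17 cultures and 7 lower, beside 32.3% and 12.5% of all genes. After median-of-ratios scaling the counts were 1 and 15 (all genes: 20.9% and 21.9%). Sdha was the 1 kept as higher under every scaling, at 158, 179 and 168 TPM in DMSO Treg (0.54 ± 0.14, adjusted p = 0.00531). Ndufa4 (0.55), Ndufb2 (0.48), Uqcr10 (0.46), Atp5k (0.42) and Ndufa5 (0.42) were higher as deposited. Both Ndufb2 and Ndufa5 lost this without DMSO TH17 replicate 3, Ndufb2 also without DMSO TH17 replicate 1, and Ndufa5 also without replicate 2 of either group, at adjusted p up to 0.110. The 7 lower calls were kept under every scaling. All 3 other scalings lowered the median of all genes, which favours lower calls. It was -0.0018 with median-of-ratios scaling, 0 with quantile normalization and 0.1209 on rescaling without ribosomal protein and mitochondrial genes. Ndufb11 was at 143, 151 and 142 TPM (-0.61 ± 0.09, adjusted p = 5.9e-05), Cox7a1 at 5.14 ± 2.10 TPM (-1.50, adjusted p = 0.00912) and Uqcrh at 676 ± 41.1 TPM (-0.21, adjusted p = 0.00378). Atp5h fell by 0.215, and Ndufa6 (-0.41), Ndufa1 (-0.26) and Atp5mpl (-0.19) were called but each lost the call without some of the libraries compared, at adjusted p up to 0.180. Without 1 library the lower count ran from 4 to 10, with 4 without DMSO TH17 replicate 3 or DMSO Treg replicate 3. CD8 T and NK markers summed to 19.7 to 21.4 TPM in DMSO Treg and 7.13 to 8.84 TPM in DMSO TH17. Of 3 tested, 1 was called higher and 1 lower in Treg, and the part of these markers in the calls was not tested.

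**Figure D4:**
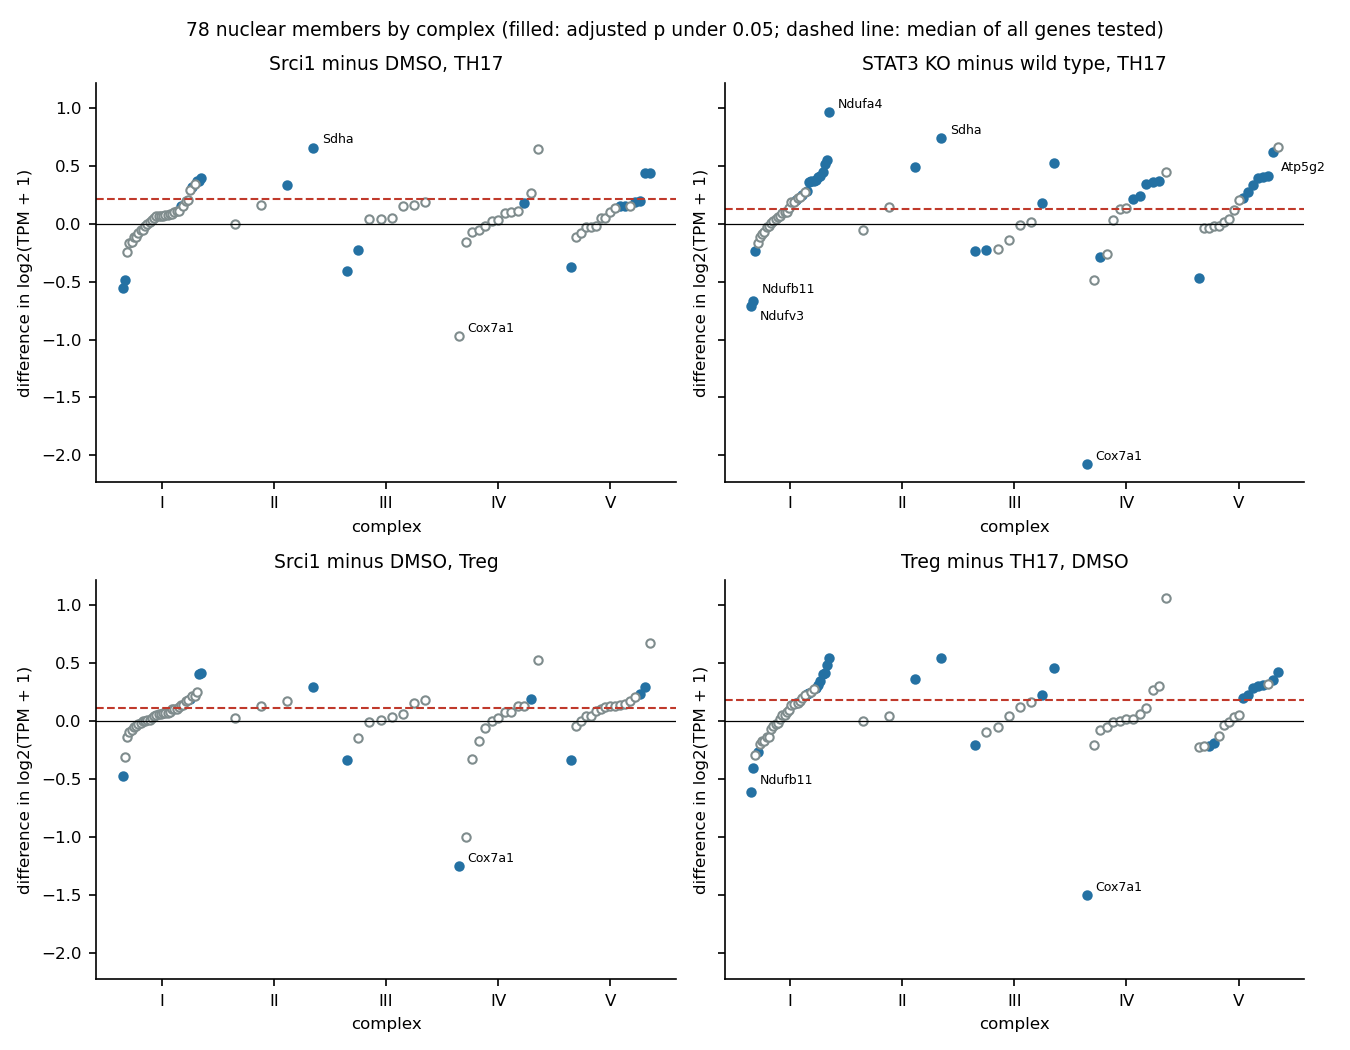
Each point is 1 of 78 nuclear members, placed by complex (x axis) and by its difference in log2(TPM + 1) (y axis), sorted within a complex, in 4 comparisons; filled points are called and the dashed line is the median of all 12800 genes. Most members lie close to 0, and Cox7a1 is the lowest point in each panel.

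Srci1 and STAT3 knockout TH17 libraries were also compared directly. Srci1 was higher than the knockout for 9 nuclear members and lower for 21, beside 30.6% of all genes higher and 18.4% lower, or 2 and 27 after median-of-ratios scaling (all genes: 24.9% and 24.2%). The median was -0.075 against 0.114 for all genes. All 21 lower calls were kept under every scaling, and 17 of them also without any 1 library. The median of all genes fell to 0.0016 with median-of-ratios scaling and 0.0055 with quantile normalization. It fell to -0.012 on rescaling without ribosomal protein and mitochondrial genes. Such shifts favour lower calls over higher ones. Ndufa4 (-0.57, adjusted p = 1.42e-04), Atp5g2 (-0.56, adjusted p = 1.79e-05) and 4 of 7 nuclear core subunits of complex I were lower with Srci1, such as Ndufs8 (-0.36), without any called higher. Cox7a2 (-0.41) and Atp5mpl (-0.41) were lower as well. Cox5a was the 1 gene higher under every scaling, at 439.5, 453 and 443 TPM with Srci1 and 335, 313 and 316 TPM in the knockout (0.47 ± 0.07, adjusted p = 5.94e-05). Ndufv3 (0.55), Atp5d (0.45) and Ndufa12 (0.34) were also higher as deposited, Cox7a1 at 1.10 overlapped between groups, and Sdha did not reach the threshold at -0.08 (adjusted p = 0.663). Of the mitochondrial genes 2 were higher and 2 lower as deposited, or 0 and 4 after median-of-ratios scaling, with mt-Nd6 (-0.595) lower under each scaling and without any 1 library. Marker sums were 13.3 to 13.9 TPM in the knockout and 1.89 to 3.24 TPM with Srci1 for B cells, 12.9 to 14.9 and 4.21 to 4.85 TPM for myeloid cells, 17.6 to 21.1 and 9.39 to 13.9 TPM for CD8 T and NK cells, and 0 to 0.87 and 6.45 to 7.33 TPM for red cells. Of 4 B cell markers tested, 1 was called higher with Srci1 and 3 lower. The part of all these markers in the calls was not tested.

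**Figure D5:**
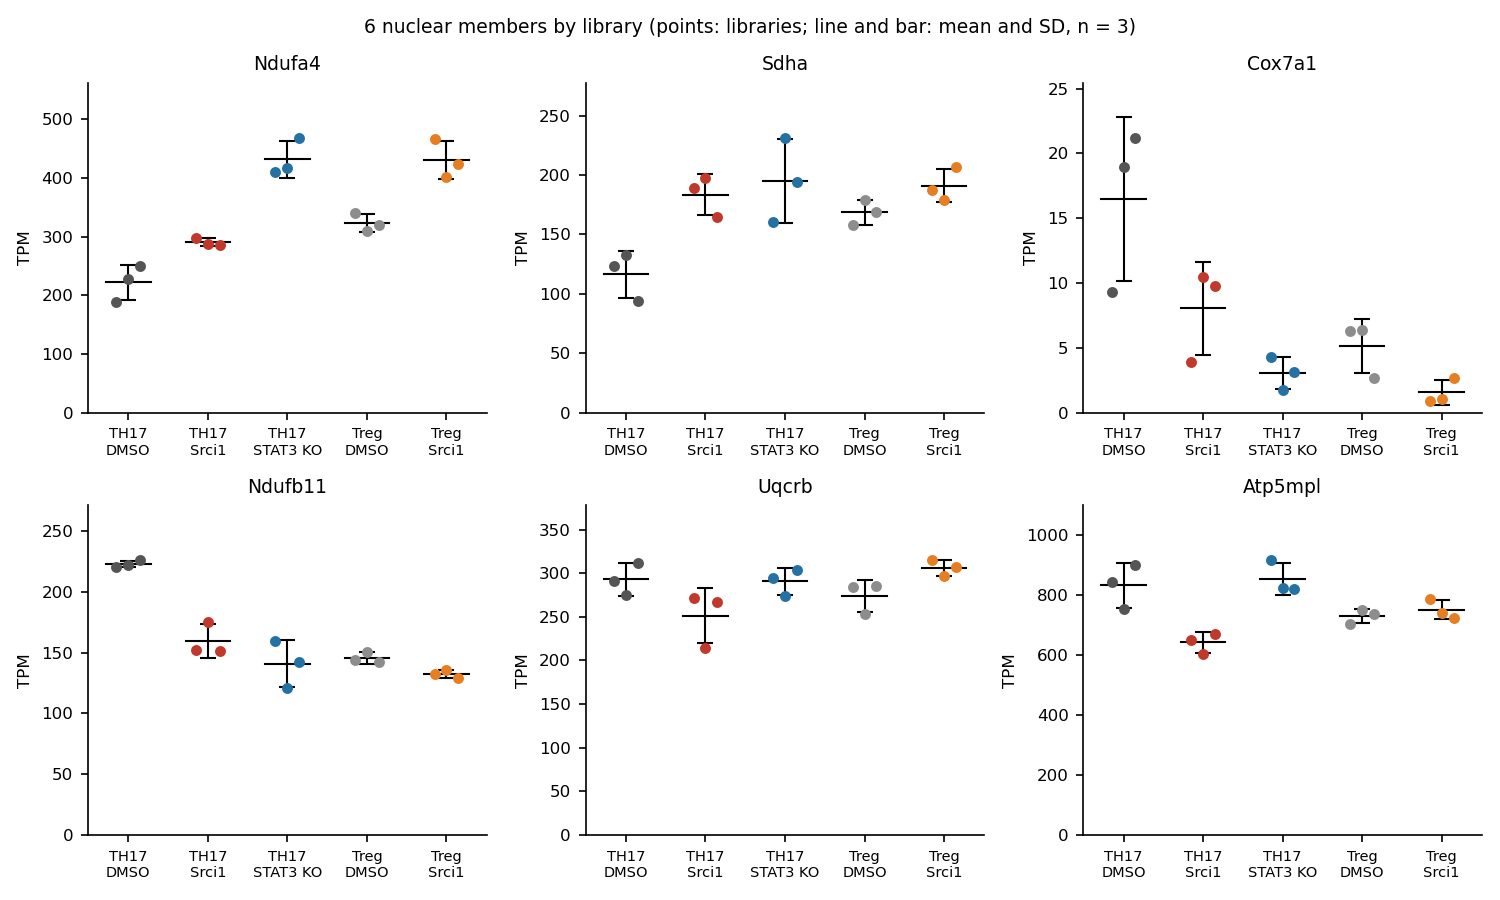
Points give TPM (y axis, from 0) of 6 nuclear members in each library, with the mean and SD of 3 libraries a group along the x axis. DMSO TH17 is lowest for Ndufa4 and Sdha and highest for Cox7a1 and Ndufb11, and Atp5mpl is lowest in Srci1 TH17.

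Isoforms of the same subunit were read group by group. Cox4i1, the ubiquitous isoform of its complex IV subunit, stayed between 762 and 873 TPM in group means with no call among the comparisons above, and its hypoxia-linked counterpart Cox4i2 was at 1.70, 2.14 and 1.80 TPM in DMSO TH17 and at most 1.37 TPM in every other library. Cox6a1 was at 875 to 1129 TPM and Cox6b1 at 446 to 473 TPM in group means, and the testis-type Cox6b2 at 4.35 to 9.74 TPM with no call. Cox7a2l, known for its role in respiratory supercomplexes, rose in the knockout by 0.24, lost under 1 of 3 scalings, and Cox8a by 0.35 likewise. Cox7b, singled out after its values were seen, had libraries far from the others of their group, at 596, 698 and 138 TPM in Srci1 Treg and 128, 131 and 319 TPM in the knockout, and was not called in any comparison.

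Genes that build or feed the chain were read from lists that hold none of the 91 members. The shares of all genes called higher and lower, against which the counts stand, were 33.8% and 7.08% for Srci1 in TH17, 30.9% and 18.9% in the knockout, 17.1% and 10.0% for Srci1 in Treg, and 32.3% and 12.5% for Treg against TH17. Of 47 assembly factors, 9 rose and 2 fell in TH17 with Srci1, 15 and 8 in the knockout, 5 and 1 with Srci1 in Treg, and 8 and 4 in Treg against TH17. Under all 3 other scalings 1 and 2, 11 and 8, 1 and 1, and 3 and 4 were kept, in that order. Cox17, the copper chaperone of complex IV, fell by 0.57 in the knockout, by 0.71 with Srci1 in Treg (adjusted p = 2.15e-06) and by 0.24 with Srci1 in TH17, and was higher in Treg than TH17 by 0.64. Sco1, another copper chaperone, fell by 1.01 in the knockout and was called higher by 0.51 with Srci1 in TH17. Ndufaf7, a complex I assembly factor, rose by 0.72 in the knockout.

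Genes that maintain and transcribe the mitochondrial genome were read beside its transcripts. Of 28 tested from 30 names, 2 were higher and 1 lower with Srci1 in Treg, where 12 of 13 mitochondrial sums rose, and the medians of this list and of all genes were 0.179 and 0.114. Tfam, which packages mitochondrial DNA and starts its transcription, was at 53.8 TPM in DMSO and 65.9 TPM in Srci1 Treg (0.29, adjusted p = 0.128). Polrmt, the mitochondrial RNA polymerase, was at 19.5 and 23.0 TPM (0.25, adjusted p = 0.383). In the knockout 9 were higher and 5 lower, among them Ssbp1 (0.55) up and Lrpprc (-0.36), which stabilises mitochondrial mRNA, down. With Srci1 in TH17 the counts were 5 and 2, and in Treg against TH17 11 and 2. Calls kept under all 3 other scalings were 0 and 1 for Srci1 in Treg, 4 and 4 in the knockout, 0 and 2 for Srci1 in TH17, and 3 and 2 for Treg against TH17.

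Regulators known for acting on these genes were read next. Hif1a, the hypoxia factor, was at 265 ± 51.5 TPM in DMSO TH17 and 55.0 ± 10.2 TPM in the knockout (-2.25, adjusted p = 1.72e-08), and fell with Srci1 in TH17 (-0.51) and in Treg (-0.61). Myc fell in the knockout by 0.68 and with Srci1 in Treg by 0.26, and Pprc1, a coactivator of the PGC-1 family, fell in the knockout by 0.43. Nrf1, a factor known for binding promoters of nuclear respiratory genes, was higher in Treg than TH17 by 0.565. Ppargc1a, which encodes PGC-1alpha, was at 0.167 TPM or less in every group mean, and Ppargc1b at 1.42 to 1.99 TPM. Of 14 regulators tested from 19 names, 4 rose and 1 fell in TH17 with Srci1, 1 and 5 in the knockout, 2 and 3 with Srci1 in Treg, and 5 and 1 in Treg against TH17. Those kept under all 3 other scalings were 0 and 1, 1 and 5, 2 and 3, and 3 and 1.

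Genes that supply electrons, like all genes as deposited, were called more often higher than lower. Of 13 electron carriers and nucleotide exchangers, 7 rose and 0 fell in TH17 with Srci1, 4 and 3 in the knockout, 2 and 1 with Srci1 in Treg, and 6 and 0 in Treg against TH17. The other scalings together left 0 and 0, 3 and 3, 1 and 1, and 4 and 0. Cycs, the cytochrome c gene, was at 81.2 TPM in DMSO TH17 and 58.8 TPM in the knockout (-0.46, adjusted p = 1.04e-04), while the electron transfer flavoprotein gene Etfb rose there by 0.51 and Etfdh by 0.75. Of 25 genes of the TCA cycle and pyruvate entry, 7 rose and 1 fell in TH17 with Srci1, 9 and 6 in the knockout, 4 and 1 with Srci1 in Treg, and 10 and 2 in Treg against TH17, of which 2 and 1, 5 and 6, 1 and 1, and 5 and 2 were kept under the other scalings. Pdk2, a kinase that restrains pyruvate dehydrogenase, rose from 3.17 to 21.3 TPM in the knockout, and Pdk1 fell from 49.9 to 24.0 TPM. Of 13 genes of coenzyme Q synthesis, 6 were higher and 0 lower in the knockout, 2 and 0 and 1 and 0 with Srci1 in TH17 and Treg, and 7 and 0 in Treg against TH17, and 3, 0, 0 and 2 of the higher calls were kept.

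Promoters of nuclear members are given because these genes, spread over many chromosomes, are known to share the regulators NRF1, GABPA and YY1. RefSeq promoter sequences (GRCm38.p6, 250 bases before to 50 after the start) matched 66 of 78. Exact motifs were searched on both strands. The NRF1 core GCGCATGC was in 10 of 66 (15.2%), against 3.0% of 27025 promoters and 6.3% of 9173 promoters of tested genes. The YY1 motif AAGATGGC was in 10 (15.2%), against 3.2% and 5.6%. The ETS motif CCGGAAG, the site type of GABPA, was in 16 (24.2%), against 9.9% and 21.7%. An NRF1 match can overlap its own reverse complement, and an ETS match can share its last letters with a YY1 match. A match is a string of letters and not a bound site.

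Atp5k and Sdhd are shown, both called higher in 4 of the comparisons as deposited, all but Srci1 in Treg sharing the 3 DMSO TH17 libraries. Only the Sdhd call in the knockout was kept under all 3 other scalings. The Atp5k call for Srci1 in Treg was also lost without any of 4 libraries. Sdhd was called lower with Srci1 than in the knockout. Motif matches are in capitals, with 270 bases each, from 250 before to 20 after the start. Atp5k (chr5:108434380-108434649, minus strand) holds the NRF1 letters on both strands, overlapping in 1 palindromic run, and an ETS match. Sdhd (chr9:50603830-50604099, minus strand) holds an ETS match.
Atp5k: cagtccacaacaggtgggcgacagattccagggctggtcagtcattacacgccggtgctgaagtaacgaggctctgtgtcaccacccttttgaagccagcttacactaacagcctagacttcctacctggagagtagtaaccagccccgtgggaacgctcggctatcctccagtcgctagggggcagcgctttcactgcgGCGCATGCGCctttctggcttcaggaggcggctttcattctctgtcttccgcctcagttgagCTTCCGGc
Sdhd: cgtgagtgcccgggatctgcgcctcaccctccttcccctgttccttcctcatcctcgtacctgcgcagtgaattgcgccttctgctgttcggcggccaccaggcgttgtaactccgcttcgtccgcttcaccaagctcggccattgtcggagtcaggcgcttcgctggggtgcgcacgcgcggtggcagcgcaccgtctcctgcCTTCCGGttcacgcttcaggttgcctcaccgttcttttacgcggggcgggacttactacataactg
Atp5k was at 194, 231 and 230.0 TPM in DMSO TH17, 307, 280 and 299.6 in Srci1 TH17, 297, 257 and 320.4 in the knockout, 316, 296 and 266 in DMSO Treg and 385, 355 and 338 in Srci1 Treg. All 3 DMSO TH17 libraries were below the other 12 for Atp5k, and for Sdhd as well.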

How the data were processed

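Poly(A) RNA of 15 cultures was sequenced, 3 libraries in each of 5 groups, and the authors deposited 1 table of TPM per gene. Reads were processed with STAR 2.7.9a and RSEM 1.3.3 on GRCm38, per the submitters' processing notes. Columns summed to 999998.72 to 1000001.22, and TPM keeps no depth. Whether counting used strand is not given in the sources used here.

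Gene IDs were matched to GENCODE M21 (55240 of 55421). Values were tested as log2(TPM + 1) with limma 3.58.1 in R 4.3.3 (trended variance, 1 model over all 15 libraries, 10 residual degrees of freedom) on 12800 genes, those that reached 1 TPM in 3 libraries or more. P-values were adjusted by Benjamini-Hochberg over all of these, with a threshold of 0.05. The procedure was tested on simulated data. Transcripts were aligned to each other to find copies of members, at 95% identity or more, and pairs of a mitochondrial gene and a copy at 99% identity and 90% coverage or more were summed as an alternative. The copies of 15 nuclear members had at most 3.66% of the member's TPM.

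Members and gene lists were chosen with earlier results of these data known. Genes named in the text were the mitochondrial genes, the Sdh genes, listed isoforms, and in each comparison the 6 called nuclear members of largest change in each direction without overlap between libraries. Of other pathways, a fixed set and up to 3 called genes a list were named, and the values of some genes are not reported here. Ndufa9, Ndufb9, Cox7b, Atp5a1, Atp5j and Atp5o were named after their values were seen. Alternatives were another pseudocount, other filters, 3 other scalings, array weights, a model of the compared groups alone, a replicate block and each library left out in turn.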

Additional observations from a re-analysis of the deposited data

Results flagged for a closer look

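A test of the difference itself called 5 members whose response to Srci1 differed between TH17 and Treg cultures. Each value is the effect seen in TH17 cultures less the one in Treg cultures, on the log2(TPM + 1) scale, tested with limma. Atp5mpl had a difference of -0.413 (adjusted p = 0.0125). Its 3 Srci1 TH17 libraries were all below the 3 DMSO TH17 ones, and its change in Treg cultures was 0.04 (adjusted p = 0.703). Uqcrb had -0.387 (adjusted p = 0.0489), which leaving out any of 9 libraries ended. mt-Nd1 had -0.479 (adjusted p = 0.00838), with the larger rise in Treg cultures, and held without any 1 library. mt-Nd4 had -0.487 (adjusted p = 0.0338), lost without any of 8 libraries in turn. mt-Nd3 had -1.849 as deposited (adjusted p = 0.0278), lost without any of 7 libraries in turn, and -0.955 when summed with its chromosome 1 copy, a call kept without any 1 library; the copy took 84.5% to 95.2% of the pair. All 5 calls as deposited were kept under 3 other scalings, among them the one without ribosomal protein and mitochondrial genes. That one moved the median of all genes from 0.1266 to 0.0789. With median-of-ratios scaling it was 0.0002 and with quantile normalization -0.0184. Such shifts favour lower calls, and all 5 were lower.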

How the results depend on the processing

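Counts are of members called higher or lower, for the nuclear (78) and mitochondrial (13) sets. Shares of all genes called higher and lower follow in parentheses, and those after median-of-ratios scaling stand beside the counts above. After median-of-ratios scaling, Srci1 in TH17 had nuclear 1 and 15 and mitochondrial 1 and 1; the knockout nuclear 12 higher; Srci1 in Treg nuclear 1 higher; Treg against TH17 nuclear 1 and 15 and mitochondrial 7 lower; the difference of Srci1 effects mitochondrial 5 lower; and Srci1 against knockout nuclear 2 higher and mitochondrial 0 and 4. Genes whose sign turned were, for Srci1 in TH17, Atp5a1 (-0.073), Atp5f1 (-0.122), Atp5j (-0.115), Atp5o (-0.081), Cox5a (-0.093), Ndufb9 (-0.115) and mt-Nd1 (-0.052, also with sums), and for Treg against TH17, Atp5o (-0.021) and Ndufb9 (-0.066). The scaling itself lowers every difference in these comparisons. Quantile normalization gave Srci1 in TH17 nuclear 6 and 11 and mitochondrial 5 higher (all genes: 16.9% and 15.4%). Srci1 in Treg had nuclear 4 higher (13.7% and 13.1%). Treg against TH17 had nuclear 11 and 11 and mitochondrial 1 higher (21.2% and 21.4%). The difference of effects had nuclear 5 lower (8.59% and 6.46%), and Srci1 against knockout nuclear 5 and 40 (25.3% and 24.6%). Rescaling without ribosomal protein and mitochondrial genes gave Srci1 in TH17 nuclear 4 and 8 (24.2% and 10.5%). Srci1 in Treg had nuclear 4 higher (13.3% and 11.9%), and Treg against TH17 nuclear 12 higher and mitochondrial 3 lower (28% and 15.4%). Srci1 against knockout had nuclear 2 and 33 and mitochondrial 0 and 4 (23.3% and 25%). Sums with copies gave Srci1 in Treg mitochondrial 12 higher and Treg against TH17 mitochondrial 3 lower; with median-of-ratios scaling as well, Srci1 in TH17 1 and 3, Treg against TH17 9 lower, the difference of effects 8 lower and Srci1 against knockout 0 and 5. For the other settings the cause of a change was not tested. Without a filter, Srci1 in Treg had nuclear 2 lower (7.88% and 5.48%) and Treg against TH17 mitochondrial 0 lower (16.9% and 7.24%). The difference of effects had nuclear 1 and mitochondrial 1 lower (5.32% and 1.5%), and Srci1 against knockout mitochondrial 0 and 1 (16.7% and 11.4%). A filter of 5 TPM gave Treg against TH17 mitochondrial 2 lower (36.9% and 13%). A pseudocount of 0.1 gave the difference of effects nuclear 1 lower (10.5% and 2.43%). Array weights gave Srci1 in Treg nuclear 18 and 9 (27% and 13.2%) and Treg against TH17 mitochondrial 2 lower (30.7% and 13.5%). They gave the difference of effects nuclear 2 higher (13.6% and 4.28%). With only the compared groups, which leaves fewer libraries, Srci1 in TH17 had nuclear 7 and 3 (22.3% and 5.12%). The knockout had mitochondrial 3 higher (24% and 14.8%), and Srci1 in Treg nuclear 12 and 7 (23.6% and 11.6%). Treg against TH17 had nuclear 4 and mitochondrial 0 lower (25.7% and 10.5%), and Srci1 against knockout mitochondrial 1 higher (29.3% and 17.2%).

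Leaving out 1 library at a time gave these ranges. The knockout had nuclear 25 to 33 higher and 7 to 9 lower, and mitochondrial 4 to 5 higher. Srci1 in TH17 had nuclear 8 to 13 and 4 to 7, and mitochondrial 2 to 6 and 0 to 1, with 6 without DMSO TH17 replicate 1. Srci1 in Treg had nuclear 3 to 7 and 1 to 4, and mitochondrial 4 to 8, with 4 without Srci1 Treg replicate 3. Treg against TH17 had nuclear 16 to 23 and 4 to 10, and mitochondrial 0 to 3 lower. The difference of effects had nuclear 0 to 3 and 1 to 2, and mitochondrial 1 to 2 lower. Srci1 against knockout had nuclear 7 to 9 and 18 to 22, and mitochondrial 0 to 3 and 1 to 2. Of the single results, 727 were unchanged in direction and call and 203 lost the call.

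Replicate numbers did not pair the libraries: 30 same-numbered correlations of deviations ran from -0.171 to 0.128, 2 of them over 0.1. With the replicate block, Treg against TH17 had 2 mitochondrial genes lower and Srci1 against knockout 0 higher, and 143 of the single results were unchanged and 7 lost the call.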
